A study of Mus musculus with 6 samples.

Results

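The cytosolic ribosomal protein genes are the genes whose proteins build the small and large subunits of the ribosome in the cytoplasm. They were chosen by gene symbol alone: Rps or Rpl followed by a number with at most one of the letters a, l or x, plus the stalk genes Rplp0, Rplp1 and Rplp2 and the small subunit gene Rpsa. The rule matched 83 of the 55809 genes counted, 32 of the small subunit (Rps) and 51 of the large subunit (Rpl), spread over 19 chromosomes. The libraries came from HC11, a clonal mouse mammary epithelial line that the study used as a luminal cell model, grown in medium with BMP7 (BMP7, 3 libraries) or in the same kind of medium without it (Ctrl, 3 libraries). Both groups were the same unmodified line, and the methods describe starvation of HC11 cells before BMP7 and a short and a longer exposure without saying which applied to these libraries. The labels do not say that the libraries came from separate cultures, so p-values measure only the spread between libraries, which may be technical. The BMP7 libraries carry the numbers 1, 3 and 4 in the count table and are called BMP7 replicates 1, 3 and 4 here. Counted fragments totalled 19908386, 19858701 and 20327200 in Ctrl replicates 1, 2 and 3, and 14607938, 23748970 and 18300052 in BMP7 replicates 1, 3 and 4.

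A ribosome holds one copy of nearly every ribosomal protein, and growing cells make these proteins in matched amounts. Their mRNAs are abundant and short and typically begin with an unbroken run of pyrimidines (C and T) at the first base, the 5′ terminal oligopyrimidine motif, through which mTOR and the RNA-binding protein LARP1 set their translation. In mammals each protein is usually made from a single gene with introns, but the genome also carries many processed copies of these mRNAs, most of them pseudogenes. BMP7 is a secreted ligand of the TGF-beta family that signals through SMAD1 and SMAD5.

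The starts of 4 genes that the results return to are shown first. The sequences are those of RefSeq on GRCm38.p6, 25 bases before to 25 bases from the annotated start in the direction of transcription, and capitals mark the longest pyrimidine run that touches the window of 20 bases on either side of the start.
Rpl27a (chr7:109519170-109519219, + strand): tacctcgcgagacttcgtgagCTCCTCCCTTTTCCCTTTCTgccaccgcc
Rplp2 (chr7:141447626-141447675, + strand): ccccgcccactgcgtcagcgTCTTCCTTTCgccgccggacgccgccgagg
Rpl4 (chr9:64173362-64173411, + strand): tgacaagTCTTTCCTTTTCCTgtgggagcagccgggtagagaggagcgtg
Rps26 (chr10:128626482-128626531, - strand): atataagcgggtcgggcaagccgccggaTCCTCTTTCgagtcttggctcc
The run of Rpl27a is 20 bases long and that of Rplp2 10 bases, and both span the annotated start. The 14-base run of Rpl4 lies before it and the 9-base run of Rps26 after it. Promoter sequences matched 61 of the 83 genes with 73 annotated starts. A run of at least 8 pyrimidines stood within 20 bases of 31 of these starts (42.5%), against 16.1% of 32851 starts of all genes. CCGGAAG, the core that ETS factors such as GABPA bind, was found on either strand of the 300-base promoter at 35.6% of the starts against 8.86% of all. AAGATGG, the core of YY1 sites, was found at 15.1% against 6.34%, and TATAAA, the TATA box, at 9.59% against 13.6%. CCGGAAG and AAGATGG can overlap at the letters AAG. Matches describe letters in these windows and are not evidence that a factor binds there.

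The copies of these genes bear on what could be counted, since the authors did not count fragments that fitted more than one place or gene. Of the 83 genes, 80 had a 50-base window, in the transcript examined for each, that also occurs in a pseudogene. The median share of windows found in another gene was 53.3%. The reads came in pairs and were longer than these windows, so a shared window alone does not make a fragment uncountable. Rpl7a shared windows with 123 other genes. Rpl3l and Rpl39l shared none. Short stretches of reading frame show the range, with differing letters in capitals. Rpl32 (chr6:115782466-115785708, - strand, mm39) and Rpl32l (chr10:20084236-20084634, + strand, mm39), an intronless copy that the name rule also takes, are 97.5% identical over the aligned reading frame.
Rpl32: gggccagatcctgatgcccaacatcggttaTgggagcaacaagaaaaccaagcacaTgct
Rpl32l: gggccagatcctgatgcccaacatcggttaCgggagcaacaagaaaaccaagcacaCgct
Rps27 (chr3:90119829-90120958, - strand, mm39) and its paralog Rps27l (chr9:66853368-66856798, + strand, mm39) are 76.1% identical, and differ at 18 of the first 60 bases.
Rps27: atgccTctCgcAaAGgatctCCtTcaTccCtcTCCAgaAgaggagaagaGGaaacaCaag
Rps27l: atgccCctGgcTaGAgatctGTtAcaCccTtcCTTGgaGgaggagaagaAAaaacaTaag
Rpl6l, an intronless copy 98.7% identical to Rpl6 over the aligned frame, also matched the name rule. Rpl32l and Rpl6l are processed pseudogenes in GENCODE vM21, while RefSeq lists Rpl32l as protein-coding.

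Counted levels ranged widely. Among the 79 genes that passed the filter on low counts, mean counts per library ran from 15.8 (Rps29) to 27162 (Rpl4), with 12 genes under 100 counts, 38 between 100 and 1000, 22 between 1000 and 10000 and 7 at 10000 or more. Genes with at least 1000 counts shared a median of 35.4% of their windows with other genes (8 of 29 at 50% or more), and genes with fewer counts 71.3% (37 of 50). Per kilobase of exon, the level fell as the shared fraction rose (Pearson r = -0.50, Spearman rho = -0.47 over 79 genes, a description, since these genes share the same 6 libraries and partly the same copies). Rps27, with 98.7% of its windows found elsewhere, had a mean of 54.5 counts, and its paralog Rps27l, with 22.4%, had 862. Rps18 (86.7% shared, chosen after its values were seen) had 67.3 counts. The part that shared sequence played in the counted level was not tested, but levels of these genes relative to each other are levels of countable fragments rather than of mRNA. Overlapping annotation adds a further limit: 37 of the genes share exon bases with another gene, often a small nucleolar RNA gene, and Rpl23a and Rpl35 do so over more than 50% of their exon bases.

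**Figure D1:**
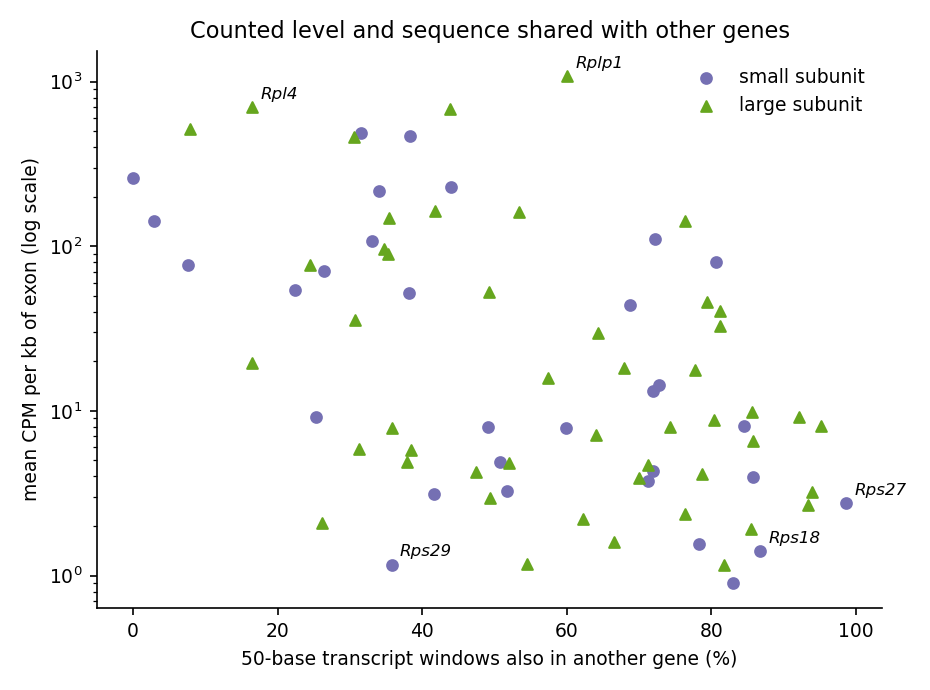
Mean CPM (counts scaled by library size) per kilobase of exon (log scale) of the 79 tested genes against the percent of their 50-base transcript windows that also occur in another gene; circles are small subunit and triangles large subunit genes. Rplp1 is highest at 1080 CPM per kb, and Rps27, at 98.7% of windows shared, lies at 2.75.

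The libraries responded to BMP7 and carried epithelial markers. Id1, a direct BMP target gene, had 7.61, 8.21 and 7.87 CPM in Ctrl and 162, 158 and 142 CPM in BMP7 replicates 1, 3 and 4. Summed over 8 mammary epithelial markers (none at 0 in every library, although the milk protein gene Csn2 had counts in 1 library only) the level was 7828 to 7994 CPM in Ctrl and 8119 to 9481 in BMP7. Krt5 and Krt14 made up most of this sum, and Krt14 was at 3394 to 3631 CPM in Ctrl and 4284 to 5258 CPM in BMP7, while Epcam (631 to 647 against 460 to 499 CPM), Cdh1 (970 to 992 against 787 to 839 CPM) and Krt18 (48.5 to 51.1 against 27.1 to 35.7 CPM) were lower in every BMP7 library. BMP7 replicate 1 stood apart from the other BMP7 libraries in markers of other cells: 12 adipocyte markers summed to 22.6 to 34.2 CPM in Ctrl and to 35.8, 95.6 and 82.1 CPM in BMP7 replicates 1, 3 and 4, and 14 macrophage markers to 62.3 to 67.5 CPM and to 66.4, 31.2 and 29.7 CPM. Fibroblast markers (6 genes) summed to 112 to 123 CPM in Ctrl and to 98.7, 114 and 112 CPM in BMP7 replicates 1, 3 and 4, and endothelial markers (4 genes) to 13.2 to 15.9 CPM and to 23.98 to 26.2 CPM. The endothelial sum was nearly all Pecam1, with Cdh5, Kdr and Tie1 under 0.4 CPM in every library. The macrophage markers did not all move together. Lyz2 was at 25.5 to 26.6 CPM in Ctrl and 22.5, 6.76 and 6.94 CPM in BMP7 replicates 1, 3 and 4. Mpeg1, Adgre1, Csf1r, Ptprc, Tyrobp and Fcer1g also lay under every Ctrl library in BMP7 replicates 3 and 4. Cd68 went the other way, at 10.9 to 11.6 CPM in Ctrl and 12.4 to 15.6 CPM in BMP7. Cd74 and C1qa lay above every Ctrl library in BMP7 replicates 3 and 4. Within the fibroblast sum Col1a1 was at 65.1 to 78.8 CPM in Ctrl and 48.9 to 58.1 CPM in BMP7. Col1a2 was higher in BMP7, at 1.06 to 1.62 and 3.76 to 5.78 CPM. So were Pdgfrb (1.62 to 2.22 against 2.51 to 3.19 CPM) and, by a small margin in replicate 1, Dcn (0.737 to 1.73 against 1.74 to 4.90 CPM). Lum, under 0.7 CPM throughout, lay above every Ctrl library in BMP7 replicates 3 and 4, and Pdgfra overlapped. Genes of the mitochondrial genome took 5.15% to 7.41% of counts in Ctrl and 6.14% to 8.26% in BMP7. The part of these differences in the results below was not tested.

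In whole libraries, ribosomal protein genes took 1.12%, 1.12% and 1.07% of counted fragments in Ctrl replicates 1, 2 and 3. In BMP7 replicates 1, 3 and 4 they took 1.18%, 0.952% and 1.00%. The means were 1.11% ± 0.0297 in Ctrl and 1.04% ± 0.120 in BMP7 (SD, n = 3 each), and the groups overlapped, with BMP7 replicate 1 above and replicates 3 and 4 below every Ctrl library. In such bulk samples fewer cells that make an mRNA and less mRNA per cell cannot be told apart. The 10 most counted members held 61.5% to 66.6% of the family's counts. The 309 genes named as ribosomal protein pseudogenes took 0.979% to 1.03% of the counts, a share of the same order as that of the genes themselves, and it differed little between the groups (0.995% ± 0.0195 and 1.00% ± 0.0280).

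Gene by gene, few ribosomal protein genes differed between BMP7 and Ctrl. Of the 79 tested, 0 were called higher and 1 lower in BMP7, with a threshold of 0.05 on the adjusted p and of 1.2 on the fold change (edgeR's quasi-likelihood test, Benjamini-Hochberg adjustment over 15733 genes). Of all genes tested 5.99% were called higher and 5.38% lower (11.4% together, against 1.27% of these genes). At an unadjusted p under 0.05, 0 were higher and 7 lower (8.86%), against a background of 13.1% in each direction, and DESeq2 called 0 in either direction. BMP7 and Ctrl libraries did not overlap for 4 genes, all lower in BMP7 (5.06%, against 15.1% of all genes that lay below Ctrl, 14.8% above and 29.8% together). The estimates nevertheless leaned to one side: 58 of 79 (73.4%) were negative, against 51.4% of all genes, and the median log2 fold change was -0.09 (quartiles -0.17 and 0.00), against -0.01 over all genes. Small subunit genes had a median of -0.07 (22 of 31 negative) and large subunit genes of -0.11 (36 of 48 negative). For 17 of the 79 genes (21.5%, background 28.3%) the 95% interval of the change lay within a 1.2-fold difference either way. For the others the interval reached beyond 1.2-fold in at least one direction.

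**Figure D2:**
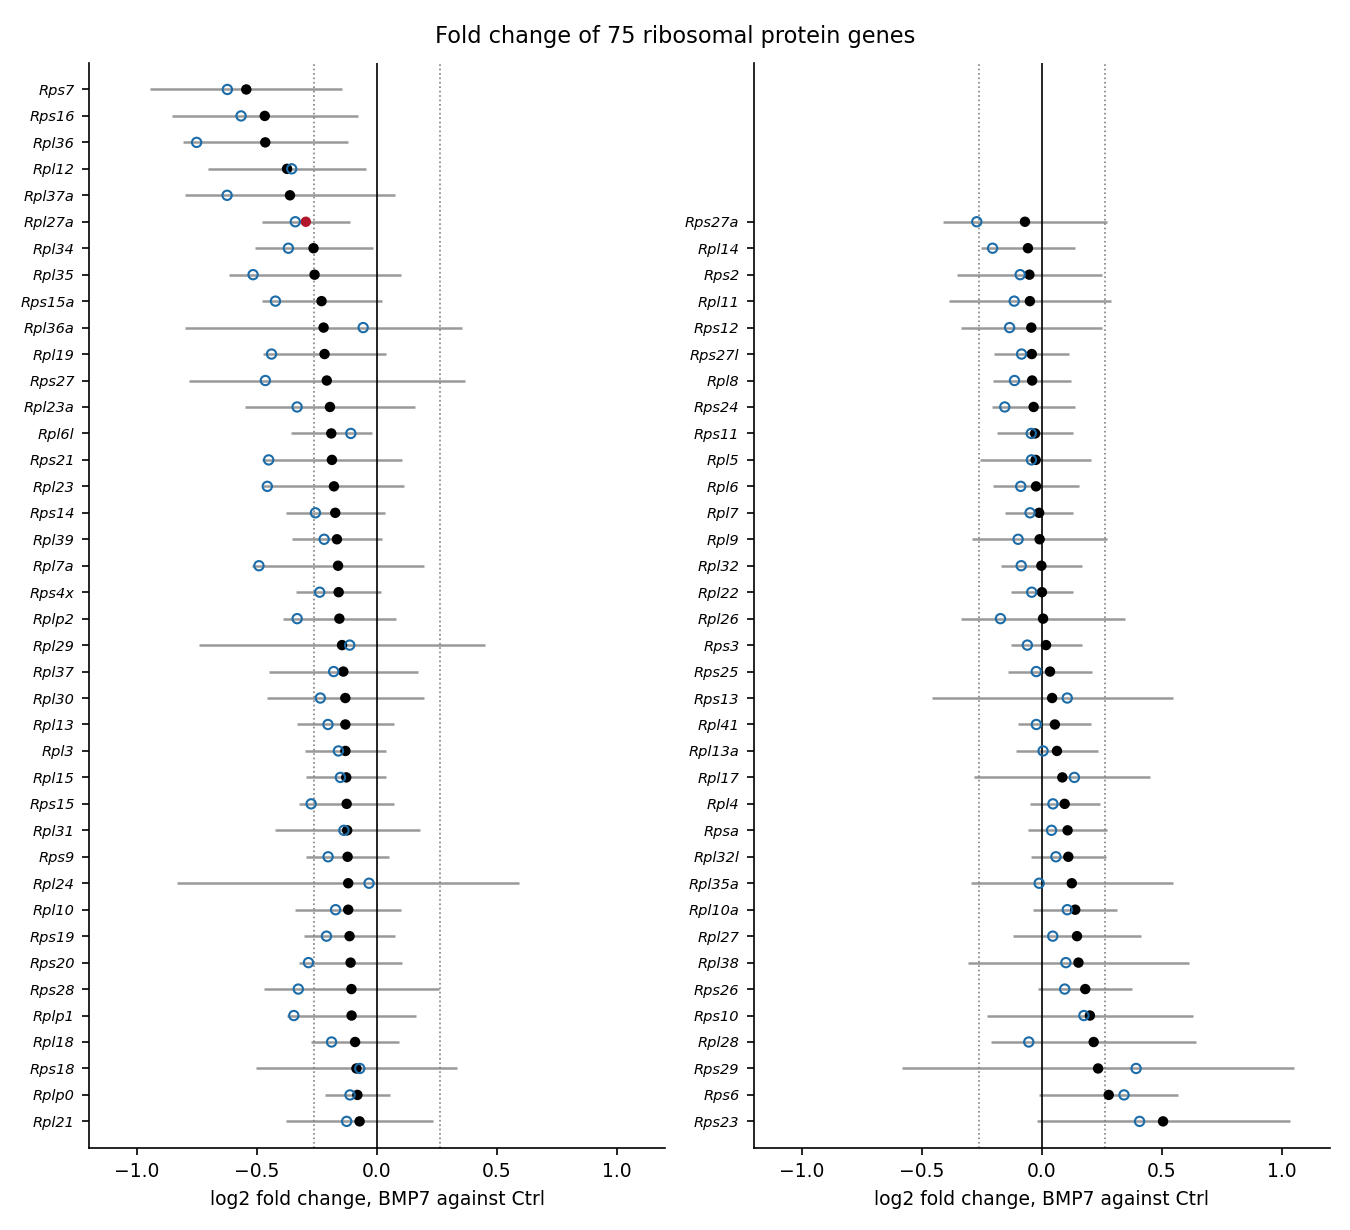
Log2 fold change of BMP7 against Ctrl for 75 of the 79 tested genes, sorted from lowest (top left) to highest (bottom right); filled points and bars are estimates with 95% intervals over all 6 libraries, open circles estimates without BMP7 replicate 1, and dotted lines a 1.2-fold change. Rpl27a (red) is the gene called, and the filled points and open circles of the left panel all lie below 0.

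Rpl27a, a protein of the large subunit (chr7:109118354-109121574, + strand, mm39), was the gene called. It had 490, 481 and 511 counts in Ctrl, or 23.6, 23.6 and 24.99 CPM, and 300, 427 and 346 counts in BMP7 replicates 1, 3 and 4, or 20.9, 19.0 and 19.1 CPM. Every BMP7 library lay below every Ctrl library. The log2 fold change was -0.30 (SE 0.0867, adjusted p = 0.031 by edgeR). An exact two-sided permutation test of its 3 against 3 values gave p = 0.1, the smallest this design allows. The call was close to the threshold. Adjusted p was 0.053 with DESeq2, and without single libraries it was 0.068 (Ctrl replicate 1), 0.078 (Ctrl replicate 2), 0.120 (Ctrl replicate 3), 0.026 (BMP7 replicate 1), 0.112 (BMP7 replicate 3) and 0.076 (BMP7 replicate 4); over all alternatives it ranged from 0.0096 to 0.120, with the log2 fold change between -0.37 and -0.27. Of its exon bases 4.76% are shared with Snora3, a small nucleolar RNA gene.

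The stalk genes encode the protein complex on the large subunit that recruits the elongation factors. Rplp0, its base, had 296, 279 and 259 CPM in Ctrl and 274, 252 and 262 CPM in BMP7 replicates 1, 3 and 4 (log2 fold change -0.08, SE 0.0642, adjusted p = 0.462 by edgeR, as for the genes that follow). These ranges overlapped. Rplp1, the acidic stalk protein gene with the highest counted level per kilobase of the family, had 513, 586 and 577 CPM in Ctrl and 680, 421 and 458 CPM in BMP7 (-0.11, SE 0.126, adjusted p = 0.653). Rplp2, its partner, had 79.6, 80.9 and 72.0 CPM in Ctrl and 86.5, 56.3 and 67.0 CPM in BMP7 (-0.16, SE 0.111, adjusted p = 0.407). For both acidic proteins BMP7 replicate 1 was the highest of all 6 libraries and BMP7 replicates 3 and 4 the lowest. The SD of Rplp1 was 39.8 CPM in Ctrl and 140 CPM in BMP7.

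**Figure D3:**
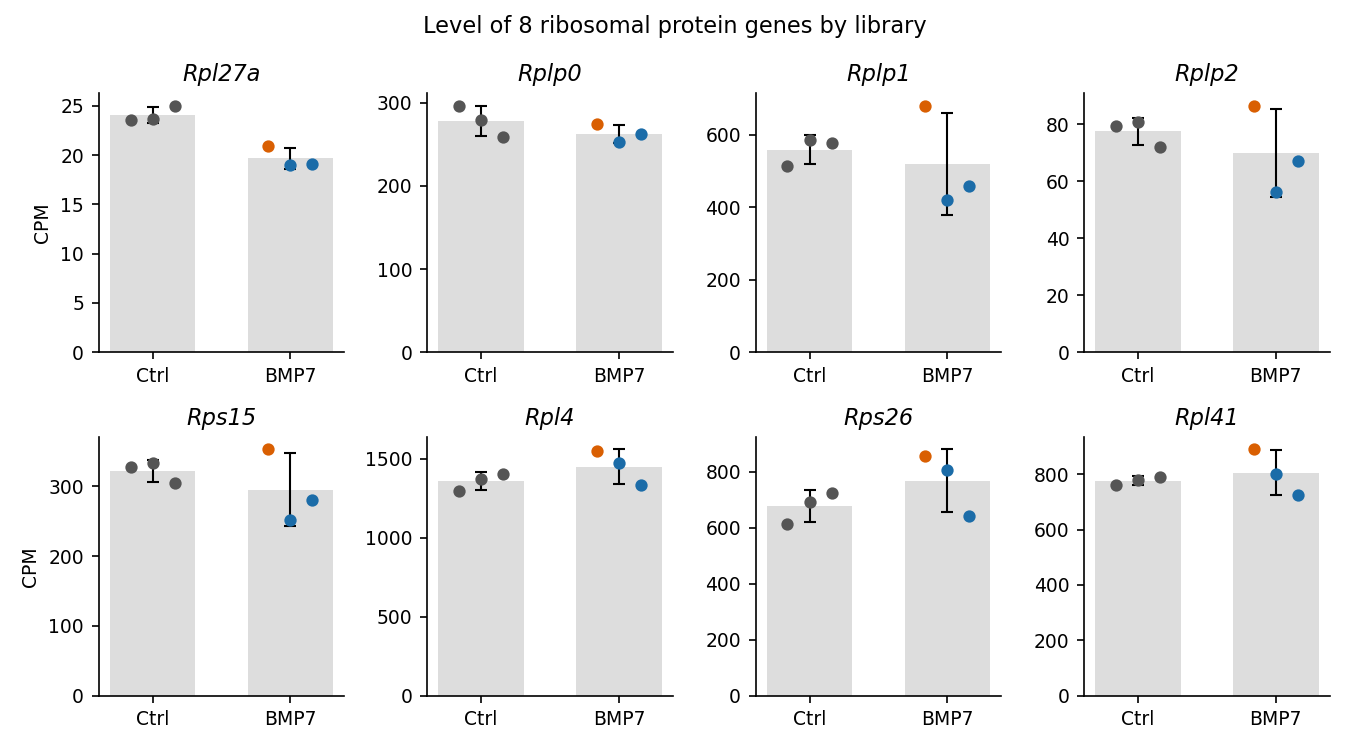
CPM of 8 ribosomal protein genes by library; bars are group means, error bars SD (n = 3), grey points Ctrl, orange BMP7 replicate 1 and blue BMP7 replicates 3 and 4, with each axis starting at 0. In Rpl27a every BMP7 point lies below Ctrl, while in Rplp1, Rplp2 and Rps15 the orange point lies above and the blue points below every grey point.

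None of the 5 members with the highest CPM was called, and 4 of these estimates were above 0. Rpl4, which lines the exit tunnel of the large subunit, had 1294, 1373 and 1405 CPM in Ctrl and 1545, 1472 and 1331 CPM in BMP7 (0.09, SE 0.0691, 95% interval -0.05 to 0.24, adjusted p = 0.423). Rps26, a small subunit protein at the mRNA exit channel, had 613, 694 and 725 CPM in Ctrl and 856, 807 and 641 CPM in BMP7 (0.18, SE 0.0927, interval -0.02 to 0.38, adjusted p = 0.233). Without BMP7 replicate 4 its log2 fold change was 0.29 and it was called (adjusted p = 0.020 by edgeR; over all alternatives its log2 fold change ran from 0.10 to 0.29 and its adjusted p from 0.020 to 0.583). Rpsa, a small subunit protein also known as the laminin receptor precursor, had 639, 705 and 750 CPM in Ctrl and 820, 760 and 676 CPM in BMP7 (0.11, adjusted p = 0.422). Rpl41, which encodes one of the smallest known proteins, had 759, 778 and 791 CPM in Ctrl and 890, 802 and 726 CPM in BMP7 (0.05, adjusted p = 0.693). In all 4 genes BMP7 replicate 1 was the highest library. Rpl8, a protein next to the peptidyl transferase centre, had a log2 fold change of -0.04 (interval -0.20 to 0.12, adjusted p = 0.790), and Rps15, of the head of the small subunit, of -0.13 (interval -0.33 to 0.07, adjusted p = 0.432).

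Several ribosomal proteins have paralogs, some of them used in particular tissues. The 4 members removed by the filter were paralogs: Rpl3l, known from striated muscle, Rpl10l and Rpl39l, known from testis, and Rps4l. Their highest count in any library was 4, 1, 5 and 1, and a count of this size is near the limit of 3 counts below which a gene is not told from 0. Their partners were counted at 609 (Rpl3), 366 (Rpl10), 544 (Rpl39) and 3490 (Rps4x) fragments per library on average. None of these partners was called. Rpl3, which shapes the peptidyl transferase centre, had 32.3, 33.1 and 33.0 CPM in Ctrl and 31.2, 27.3 and 31.5 CPM in BMP7, so that the groups did not overlap, but by a small margin (-0.13, SE 0.0805, adjusted p = 0.319). Log2 fold changes were -0.12 for Rpl10, -0.17 for Rpl39 and -0.16 for Rps4x, with adjusted p of 0.513, 0.252 and 0.247. Rps27l, the paralog of Rps27 that p53 induces, had 47.6, 45.0 and 42.7 CPM in Ctrl and 46.6, 41.1 and 44.1 CPM in BMP7 (-0.04, interval -0.20 to 0.11, adjusted p = 0.774). Rps27 itself had 3.47, 2.80 and 2.84 CPM and 3.62, 1.56 and 2.92 CPM, and its interval was wide (-0.79 to 0.37, adjusted p = 0.683).

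The lowest and the highest estimate of the family belonged to Rps7 and Rps23, chosen after their values were seen, with a mean of 305.5 and 80.3 counts per library. Rps7 had the lowest log2 fold change (-0.55, SE 0.189, adjusted p = 0.069), with 21.7, 19.5 and 14.7 CPM in Ctrl and 14.3, 8.31 and 16.2 CPM in BMP7. It was called without Ctrl replicate 3, without BMP7 replicate 4, with library totals only and without a filter on low counts. Rps23 had the highest (0.51, SE 0.249, adjusted p = 0.212), with 4.53, 2.75 and 3.03 CPM in Ctrl and 5.65, 5.91 and 3.09 CPM in BMP7. In both the groups overlapped.

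Among BMP7 libraries, replicate 1 lay on the other side of Ctrl from replicates 3 and 4. The median log2 ratio of the 79 genes to the Ctrl mean was 0.10 in BMP7 replicate 1, -0.16 in replicate 3 and -0.12 in replicate 4. Each Ctrl library set against the other Ctrl libraries gave 0.04, 0.06 and -0.07. Over all tested genes each of the 6 medians was within 0.01 of 0. Of the 79 genes 57 lay above the Ctrl mean in BMP7 replicate 1, 19 in replicate 3 and 15 in replicate 4. BMP7 replicate 1 exceeded every Ctrl library in 43 of the 79 genes (54.4%, against 33.7% of all genes), and BMP7 replicates 3 and 4 both lay under every Ctrl library in 34 (43.0%, against 21.4%). Both held at once for 23 genes (29.1%, against 2.39%). Single libraries allow no test of this difference. Genes of either subunit showed it: the medians in BMP7 replicates 1, 3 and 4 were 0.14, -0.19 and -0.14 for small subunit genes and 0.09, -0.16 and -0.11 for large subunit genes. So did the 29 genes with at least 1000 counts (0.16, -0.19 and -0.09) and the 34 genes with under 50% of windows shared (0.09, -0.23 and -0.09). The adipocyte and macrophage marker sums given above also set BMP7 replicate 1 apart from replicates 3 and 4, but not on the other side of Ctrl: its macrophage sum lay within the Ctrl range, and the adipocyte sums of all BMP7 libraries lay above it. Their part in this was not tested.

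**Figure D4:**
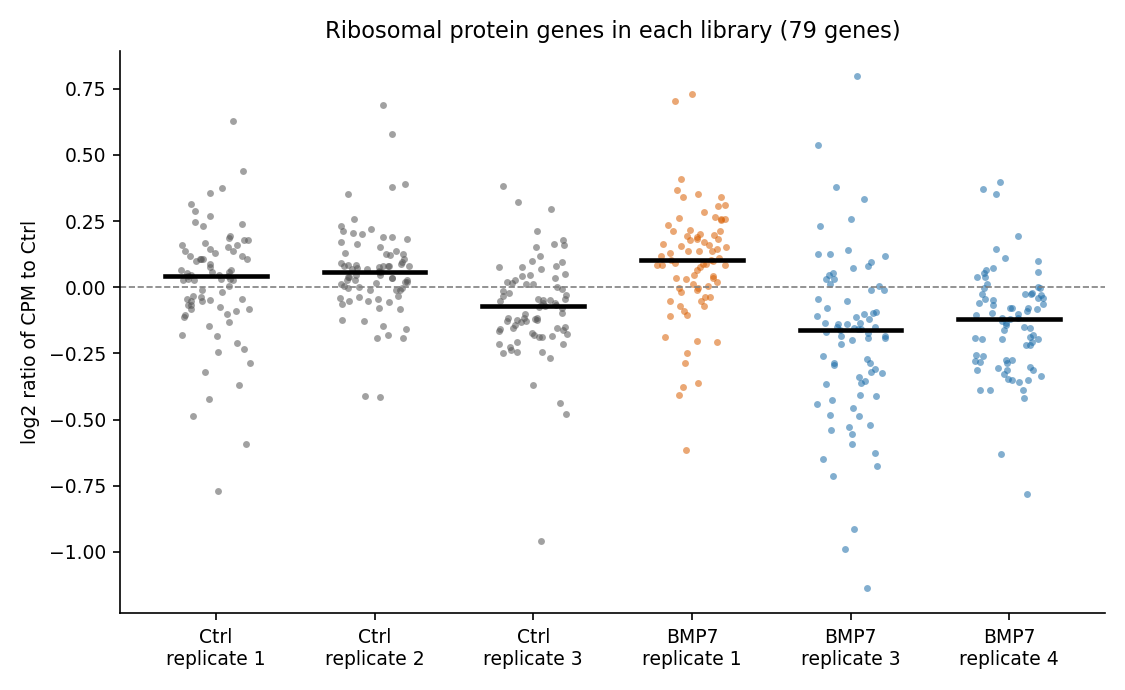
Log2 ratio of CPM of each of the 79 tested genes in each library to the Ctrl mean (for a Ctrl library, to the mean of the other Ctrl libraries); each point is a gene and the black line the median. The median is 0.10 in BMP7 replicate 1 (orange) and -0.16 and -0.12 in BMP7 replicates 3 and 4 (blue).

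Leaving BMP7 replicate 1 out changed the count most. With BMP7 replicates 3 and 4 against the 3 Ctrl libraries, 16 of the 79 genes (20.3%) were called lower and 0 higher, where 5.58% of all genes were called lower and 5.87% higher. The median log2 fold change was -0.14, and 65 of 79 estimates were negative (background 50.7%). Of the 16 genes, 10 were of the large subunit, among them Rpl7a, Rpl19, Rpl23, Rpl27a, Rpl34, Rpl35, Rpl36, Rplp1 and Rplp2, and 6 of the small subunit, among them Rps15, Rps15a, Rps20 and Rps21. Those outside the naming rule are named here because of this call. Their log2 fold changes in that fit ran from -0.75 (Rpl36) to -0.27 (Rps15). BMP7 replicate 1, which the fit did not use, lay above every Ctrl library for 13 of the 16, within their range for 1 and below it for 2. Among all 883 genes called lower in that fit and tested in both, it lay above every Ctrl library for 5.78%. Rpl23, a large subunit protein, shows the pattern: it had 175, 195 and 176 CPM in Ctrl, 218 CPM in BMP7 replicate 1, and 126 and 138 CPM in BMP7 replicates 3 and 4 (-0.46, SE 0.0704, adjusted p = 5.1e-04 without BMP7 replicate 1; -0.18, SE 0.139, adjusted p = 0.453 with it). Rpl36 had 18.3, 18.4 and 16.6 CPM in Ctrl, 18.2 CPM in BMP7 replicate 1, and 10.8 and 10.3 CPM in BMP7 replicates 3 and 4. Without BMP7 replicate 3 instead, 0 of the 79 genes were called and the median was -0.02. Of all genes, 4.50% were called higher and 3.60% lower in that fit. Without BMP7 replicate 4, 2 were called higher (Rps23 and Rps26) and 3 lower (Rpl12, Rpl6l and Rps7). In that fit 6.70% of all genes were called higher and 5.48% lower. Without Ctrl replicate 1 or 2 the count was 0. Without Ctrl replicate 3 it was 1 (Rps7, lower), where 4.34% of all genes were called lower.

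Exon length was examined because BMP7 replicate 1 leaned to short genes. The tested ribosomal protein genes had a median summed exon length of 1770 bases, against 3751 bases for all tested genes. Over all tested genes the median log2 ratio of BMP7 replicate 1 to Ctrl was 0.12 for genes of up to 500 bases, 0.10 from 500 to 1000, 0.07 from 1000 to 2000, 0.03 from 2000 to 4000 and -0.05 above 4000. Ribosomal protein genes in BMP7 replicate 1 had medians of 0.22 (3 genes), 0.08 (9 genes), 0.13 (32 genes), 0.06 (29 genes) and 0.14 (6 genes) in the same bins. Above 4000 bases they thus lay on the other side of 0 from all genes, though with 6 genes only. Summed exon length covers every annotated exon and is not the length of an mRNA. The transcripts examined for shared windows in these 6 genes ran from 468 (Rps24) to 3706 bases (Rps20). The bins therefore do not sort these genes by mRNA length. In BMP7 replicate 3 the medians of all genes fell far less, from 0.02 up to 500 bases to -0.01 above 4000. In BMP7 replicate 4 they lay between -0.01 and 0.01. Ribosomal protein genes lay below 0 in each bin (-0.41 to -0.11 in replicate 3 and -0.28 to -0.03 in replicate 4). With each library's trend over summed exon length removed, the family's median ratio was 0.07 in BMP7 replicate 1 and -0.17 and -0.10 in replicates 3 and 4. This correction has the same limit as the bins. In that fit 2 genes were called lower, Rpl27a and Rpl36, where 5.12% of all genes were called lower.

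**Figure D5:**
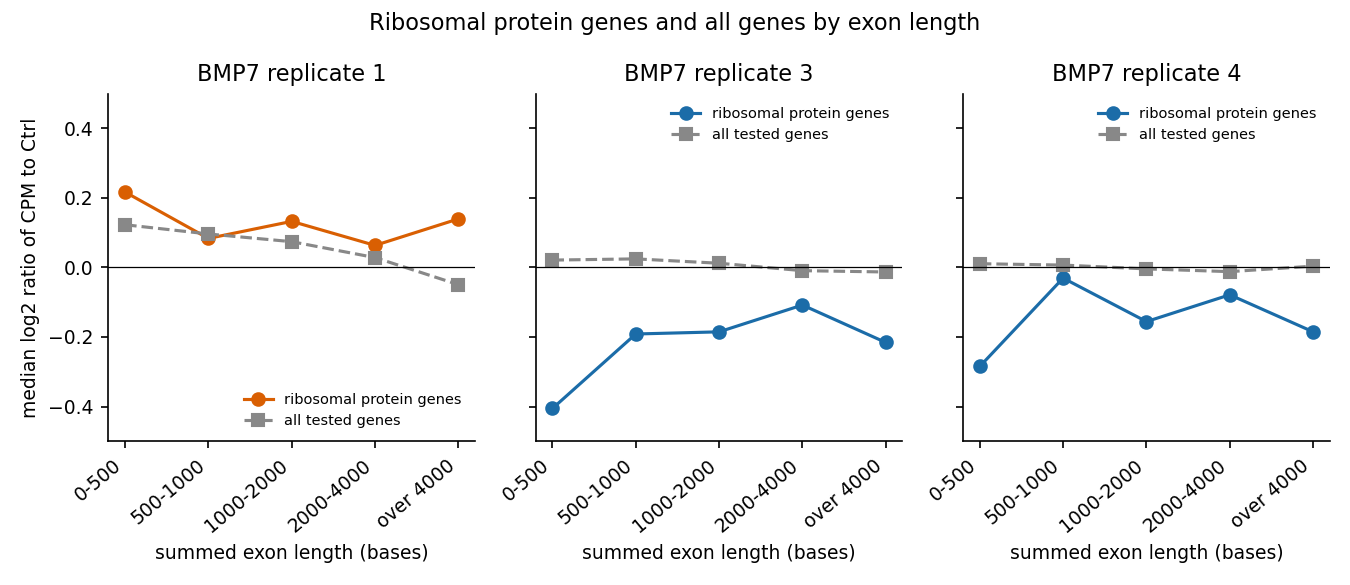
Median log2 ratio of CPM to the Ctrl mean in bins of summed exon length for BMP7 replicates 1, 3 and 4, with circles for ribosomal protein genes and grey squares for all tested genes. All genes slope from 0.12 to -0.05 in BMP7 replicate 1 and lie near 0 in the others, while ribosomal protein genes lie above 0 in BMP7 replicate 1 and below 0 in BMP7 replicates 3 and 4 in each of the 5 bins.

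Other genes of the ribosome and of translation were described from lists. Of the proteins of the cytosolic ribosome whose symbols the rule does not take, 4 of 5 were tested and 0 were called, with Rack1 and Rps3a1 among them. Their median log2 fold change was -0.04. By library their median ratios to Ctrl were 0.18, -0.13 and -0.29 in BMP7 replicates 1, 3 and 4, though over 4 genes only. The mitochondrial ribosome, which translates the mitochondrial genome, had 77 tested genes with a median of 0.00, of which 0 were called higher and 1 lower (1.3%, against 5.38% of all genes). That gene was Mrpl9, with 45.3, 38.2 and 38.3 CPM in Ctrl and 34.6, 28.4 and 34.9 CPM in BMP7 (-0.32, SE 0.0935, adjusted p = 0.031), and its call was lost without Ctrl replicate 1, Ctrl replicate 2 or BMP7 replicate 3. The median of mitochondrial ribosomal protein genes was 0.09 in BMP7 replicate 1 and -0.05 in both others.

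Among ribosomal protein pseudogenes by name, 125 were tested, 3 were called higher (2.4%, under the 5.99% of all genes) and 0 lower, and the median was 0.01. Rpl10-ps3 had 38.4 ± 3.64 CPM in Ctrl and 53.1 ± 8.85 CPM in BMP7 (SD, n = 3 each; 0.47, SE 0.104, adjusted p = 0.0056), and was called with each library left out. Rps2-ps13 (0.38, adjusted p = 0.023) was called in 2 and Rps12-ps3 (0.27, adjusted p = 0.011) in 3 of 6 such fits. Without BMP7 replicate 1, 5 pseudogenes were called lower, where 5.58% of all genes were called lower. Without BMP7 replicate 4, 7 were called higher, where 6.70% of all genes were called higher. Reads of pseudogenes and of their parent genes cannot be fully told apart, so these values are uncertain.

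Ribosome assembly genes, whose products process ribosomal RNA and join it to the proteins, had 80 tested members with a median of -0.06 (51 of 80 negative, or 63.8%, against 51.4% of all genes), of which 0 were called higher and 4 lower. That share, 5%, was close to the 5.38% of all genes. Heatr1, needed for transcription and early processing of ribosomal RNA, had 31.2, 41.2 and 34.4 CPM in Ctrl and 25.8, 25.5 and 26.6 CPM in BMP7 (-0.45, SE 0.0958, adjusted p = 0.0039). Utp20, of the small subunit processome, had 67.8, 76.4 and 69.2 CPM in Ctrl and 47.8, 52.0 and 58.0 CPM in BMP7 (-0.43, SE 0.0776, adjusted p = 0.0010). In both, all BMP7 libraries, replicate 1 included, lay below all Ctrl libraries, and the call held with each library left out. Grwd1 (-0.39, adjusted p = 0.033), which binds RPL3 during assembly, was called in 1 of 6 such fits. The list's count was 2 without Ctrl replicate 2 or BMP7 replicate 4, where 3.51% and 5.48% of all genes were called lower. It was 7 with upper-quartile scaling, 8 without a filter on low counts and 15 with library totals only. All genes called lower made up 6.25%, 3.48% and 9.37% in those fits. RNA polymerase I, which transcribes ribosomal RNA, had 13 tested subunits and factors with a median of -0.06 and 0 called by edgeR (1 in each direction at an unadjusted p under 0.05; DESeq2 also called 0).

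Translation factors bring ribosomes to mRNAs and carry them through elongation and release. Of 40 tested, 4 were called higher (10%, against 5.99% of all genes) and 0 lower, with a median of 0.00. Eif4g2, a scaffold of cap-independent initiation, had 1137, 1186 and 1155 CPM in Ctrl and 1469, 1557 and 1475 CPM in BMP7 (0.37, SE 0.0609, adjusted p = 4.5e-04), and was called with each library left out. Gspt1, the release factor eRF3a, had 157, 182 and 170 CPM in Ctrl and 212, 223 and 197 CPM in BMP7 (0.31, SE 0.0679, adjusted p = 0.0050; not called without Ctrl replicate 1). Eif4e, the cap-binding protein, had 68.1, 73.3 and 71.5 CPM in Ctrl and 87.7, 102 and 77.2 CPM in BMP7 (0.33, SE 0.0848, adjusted p = 0.016), and was called in 3 of 6 such fits. The list's count was 1 with library totals only or without Ctrl replicate 1, and 2 without Ctrl replicate 2 or BMP7 replicate 3. In those fits 4.50% to 4.89% of all genes were called higher.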

How the data were processed

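Poly(A) RNA of 6 HC11 libraries was sequenced as read pairs. The authors aligned reads with subjunc (Subread 2.0.3) and deposited raw fragment counts per gene name from featureCounts 2.0.1, with each gene's summed exon length in bases. The count table's header names the annotation mm39, while the study's methods name mm10 and GENCODE vM30. Strand was not used, and fragments of several places or genes were left out. Depth was 14607938 to 23748970 counts per library.

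Counts were tested in R 4.3.3 with edgeR 4.0.16 (expression filter, TMM, quasi-likelihood test, Benjamini-Hochberg over 15733 genes); SE is the log2 fold change over the square root of F. CPM uses TMM-scaled library sizes. Scripts were tested on simulated data. Shared windows are exact 50-base matches on either strand between a single GENCODE vM21 transcript of a gene and any transcript of another gene. The transcript taken was the lowest-numbered protein-coding one, or the lowest-numbered of any kind where none was protein-coding. It need not be the main mRNA of the gene, and the shared percentages depend on this choice. Alternatives were RLE, upper-quartile, no or member-free scaling, 2 filters, DESeq2 1.42.0, a length trend offset, other thresholds and members, and leaving out each library; 2 subsets of members (under 50% shared windows, at least 1000 counts) were added after seeing the data.

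The members, lists and named-gene rule were chosen with earlier results of these data known. The rule named called members, the 5 highest in CPM and in CPM per kilobase, members the filter removed, paralog pairs, stalk genes and Rpsa, and of each list the 3 called genes with the largest change. Others are marked as chosen after their values were seen. Promoters came from RefSeq. Some genes are not reported by name here.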

Additional observations from a re-analysis of the deposited data

How the results depend on the processing

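No paired analysis was possible because the BMP7 columns carry the numbers 1, 3 and 4 and the labels 1, 2 and 3, so numbers cannot be matched across the groups. Of ribosomal protein genes, 0 were called higher and 1 lower in the reported fit. The count called lower was 4 with library totals only, 4 without a filter on low counts, 2 with the length trend removed and 0 with DESeq2. Of all genes, 9.37%, 3.48%, 5.12% and 4.70% were called lower in those fits. It was 0 at a fold change of 1.5 and 0 among the members with at least 1000 counts. With single libraries left out the count called lower ran from 0 to 16 and the count called higher from 0 to 2. Of all genes, 3.51% to 5.58% were called lower and 4.50% to 6.70% higher in those fits. The family's median log2 fold change ran from -0.14 to -0.020. With library totals only the median was -0.16, where that of all genes moved to -0.08, and the median ratio of BMP7 replicate 3 was -0.27. The other ribosome and translation genes were 9 higher and 8 lower together. With library totals only they were 4 and 25 (where 4.56% of all genes were called higher and 9.37% lower). Without a filter they were 9 and 15 (3.49% and 3.48% of all genes), and at a fold change of 1.5 they were 1 and 1. With single libraries left out they ran from 4 to 17 and from 4 to 15 (4.50% to 6.70% and 3.51% to 5.58% of all genes). The share of counts in Ctrl was 1.23% with 5 further ribosomal proteins added, and per exon length it was 2.00% in Ctrl and 1.81% in BMP7. Where no cause is given here, the cause was not tested. Rpl27a, the only member called, lost its call with DESeq2 (log2 fold change -0.29) and without any single library except BMP7 replicate 1. Of the other members named by the rule, Rps26 gained a call without BMP7 replicate 4. Rplp1 (-0.35), Rplp2 (-0.33) and Rps15 (-0.27) gained one without BMP7 replicate 1. Members named outside the rule, such as Rps7, Rps23 and Rpl36, were also called in some alternatives. Of 224 values of members named by the rule under alternatives, 7 changed sign, none of them of a called gene. Counting error is largest in the 12 members with a mean under 100 counts, and how far it limits the others was not separated from the spread between libraries.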

Other observations

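Genes that host small nucleolar RNAs, many of which carry the same pyrimidine start as ribosomal protein genes, had 13 tested members with a median log2 fold change of -0.22, and 12 of the 13 estimates were negative. Of these, 0 were called higher and 2 lower (15.4%, against 5.38% of all genes). Snhg1 had 51.9, 42.3 and 46.7 CPM in Ctrl and 38.1, 28.7 and 34.6 CPM in BMP7 replicates 1, 3 and 4 (-0.48, SE 0.0993, adjusted p = 0.0032 by edgeR), so that every BMP7 library lay below every Ctrl library, and it was called with each library left out. Zfas1 had 47.2, 47.0 and 42.1 CPM in Ctrl and 42.8, 25.7 and 35.5 CPM in BMP7 (-0.41, SE 0.127, adjusted p = 0.044), and was called in 2 of 6 such fits. The list's count was 5 with library totals only, and 1 without Ctrl replicate 1, Ctrl replicate 2 or BMP7 replicate 3. With library totals only, 9.37% of all genes were called lower. Without Ctrl replicate 1, Ctrl replicate 2 or BMP7 replicate 3, 3.997%, 3.51% and 3.60% of all genes were. The median ratios of these genes to Ctrl were -0.08, -0.33 and -0.16 in BMP7 replicates 1, 3 and 4.

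Regulators of ribosomal protein genes and their translation (mTOR complex genes, LARP1, the 4E-BPs, MYC family, GABP, p53 and others) had 32 tested members with a median of -0.01, of which 2 were called higher (6.25%, against 5.99% of all genes) and 1 lower (3.12%, against 5.38%). Mycn, a MYC family transcription factor, had 5.35, 5.21 and 4.06 CPM in Ctrl and 1.60, 1.87 and 2.26 CPM in BMP7 (-1.34, SE 0.215, adjusted p = 3.7e-04). Cdkn1a, the p53-induced cell cycle inhibitor p21, had 70.9, 73.4 and 77.6 CPM in Ctrl and 121, 144 and 116 CPM in BMP7 (0.78, SE 0.0773, adjusted p = 2.2e-06). Gabpb1, a subunit of the ETS factor GABP, had 33.4, 33.6 and 34.8 CPM in Ctrl and 42.7, 43.8 and 39.9 CPM in BMP7 (0.31, SE 0.0715, adjusted p = 0.0070). In these 3 genes BMP7 replicate 1 lay with the other BMP7 libraries and apart from Ctrl, and each was called with every library left out in turn. The list's count called higher was 1 with library totals only, and 4 with the length trend removed and without Ctrl replicate 3 or BMP7 replicate 4. All genes called higher made up 4.56%, 6.29%, 5.57% and 6.70% in those fits, in the same order. The list's count called lower was 2 with library totals only and without Ctrl replicate 1 or BMP7 replicate 4. In these fits 9.37%, 3.997% and 5.48% of all genes were called lower.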
